A study of Sus scrofa with 61 samples.

Results

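Longissimus muscle of purebred Meishan (MS) and purebred Large White (LW) pig fetuses was compared at day 110 of gestation, shortly before birth. The fetuses labelled MSMS and LWLW among those of day 110 were taken, which gave 7 MS and 9 LW fetuses, 16 of the 61 fetuses of the series, with 1 array for each fetus. The breeds are known to differ in how many piglets die around birth, and the comparison asks how the muscle of the breeds differs at the end of gestation. MS fetuses had an MS sow and an MS boar as parents, and LW fetuses an LW sow and an LW boar. All fetuses were males taken by caesarean, according to the study's methods. The series also holds MS and LW fetuses of day 90, which are other animals, and the reciprocal crosses at both ages, LWMS from MS sows with LW boars and MSLW from LW sows with MS boars. In purebred fetuses the breed of the fetus and the breed of the sow that carried it cannot be told apart. Several fetuses can share a sow, but no label ties a fetus to its sow, so littermates entered as separate fetuses. The p-values of the main fit measure the spread between fetuses, pooled over all 8 groups of the series, and not between litters.

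Skeletal muscle of the pig fetus passes, over the last weeks of gestation, from forming and enlarging fibres to storing fuel and preparing for movement and heat production. Embryonic and fetal proteins give way to adult ones, cell division slows, and glycogen and the enzymes of mitochondria accumulate. Newborn pigs lack functional brown fat, and muscle is the main tissue in which they store glycogen and produce heat.

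Levels are given as log2 of the quantile-normalized intensity of a probe, so that a difference of 1 is a doubling. Of 60305 non-control probes, 42436 passed a filter on dim signal, which asked that in 1 or more groups 80% of the arrays measured the probe well above background, and 21456 of these carried a gene symbol. Each of 9982 genes was read by 1 main probe, the brightest of its kept probes over all arrays, and its other probes are given as a range. Probes of a gene can differ in value, levels are not compared between genes, and sequence differences between the breeds under a probe were not tested. The scanner's flag for saturated spots was not used, so compression of differences at the brightest probes was not tested either. Differences are MS minus LW with the standard error (SE) of limma's fit of all 8 groups, and a probe or gene is called where limma's adjusted p (Benjamini-Hochberg over all kept probes) was below 1%.

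Well above background were 37531 to 43603 probes in LW and 37404 to 42662 in MS, and the 75th percentile of the signal before normalization was 584 to 777 in LW and 470 to 645 in MS. Their number, 9 and 7, limits the precision, and the median SE of a breed difference was 0.14. The tissue was checked against 9 skeletal muscle markers, which had a mean level of 17.16 to 17.30 in LW and 17.29 to 17.47 in MS. The pair of measured Y chromosome genes, EIF1AY and DDX3Y, had a mean level of 6.77 to 8.22 in LW and 7.09 to 7.57 in MS, and neither was called. LW fetus 9 lay closest to MS of the LW fetuses on the first principal component of the 16 arrays, which held 37.7% of the variance and placed LW between -70.8 and -29.3 and MS between 56.8 and 80.1.

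Of the genes tested, 31.8% were called at day 110, with 1402 genes higher in MS (14% of those tested) and 1775 lower (17.8%). At the level of probes, 29% were called, 13.7% as higher and 15.2% as lower in MS. Most differences were small. The median size among called genes was 0.55, and 230 genes were higher and 319 lower by at least 1 log2 unit. The median difference over all genes was -0.01. The ranges of the 7 MS and 9 LW fetuses did not overlap for 949 genes, 9.51% of those tested, and for 8.27% of the probes.

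**Figure D1:**
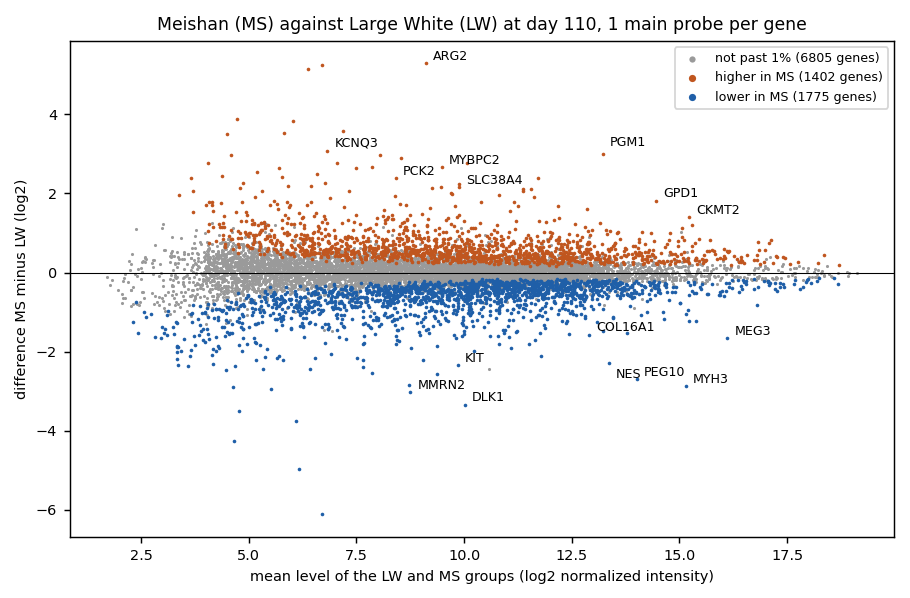
Each point is 1 gene read by its main probe: the x axis is the mean of the LW and MS group means at day 110 (log2 normalized intensity) and the y axis the difference MS minus LW (log2). Orange and blue points are the 1402 genes called as higher and the 1775 called as lower in MS, and named genes include ARG2 at 5.29 and DLK1 at -3.35.

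ARG2, the mitochondrial arginase that splits arginine into ornithine and urea, had the largest difference in size among genes measured on all 16 arrays. Its level was 5.51 to 8.72 with a median of 6.30 in LW and 10.05 to 12.96 with a median of 12.27 in MS. The ranges were apart, with LW fetus 9 the highest of its group. The difference was 5.29 (SE 0.40), 39.2-fold, with a limma adjusted p of 4.09e-16, and a second ARG2 probe gave 4.49.

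Of the genes higher in MS, KCNQ3, a subunit of a voltage-gated potassium channel, came after ARG2 with 4.45 to 6.04 (median 5.33) in LW and 7.39 to 9.03 (median 8.57) in MS, a difference of 3.09 (SE 0.39) that was 2.02 after normexp background correction. PGM1, which interconverts the phosphates of glucose at the entry to glycogen, measured 10.47 to 13.85 (median 11.32) in LW against 14.49 to 15.14 (median 14.66) in MS. The MS fetuses lay within a narrow band and the LW fetuses were scattered, without reaching the lowest MS fetus. Its difference was 3.01 (SE 0.35, adjusted p = 7.26e-10), and the other PGM1 probes gave 0.74 and 2.86. APITD1, a centromere protein also known as CENPS, differed by 2.90 (SE 0.35) and also had ranges that did not overlap.

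Further genes with large positive differences are given singly. SLC2A12, the glucose transporter GLUT12, was 4.64 to 7.61 in LW and 8.12 to 9.40 in MS, a difference of 2.64 (SE 0.27). STARD10, a lipid transfer protein, was 4.52 to 6.43 in LW and 7.64 to 8.09 in MS, a difference of 2.50 (SE 0.24) that was 1.45 after normexp background correction. SLC38A4, an amino acid transporter, was 8.07 to 9.87 in LW and 10.13 to 11.37 in MS, a difference of 2.16 (SE 0.22). In none of these 3 genes did the ranges overlap. PHYHD1, a dioxygenase related to phytanoyl-CoA hydroxylase, was 10.17 to 10.90 in LW and 12.09 to 13.43 in MS, and its difference of 2.40 (SE 0.28) stood beside only 0.25 and 0.29 from its other probes.

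Several other members of this group had ranges that overlapped. MYBPC2, the myosin binding protein of fast fibres, spanned 6.28 to 11.02 in LW and 10.32 to 11.58 in MS, with a difference of 2.67 (SE 0.35). AKR1CL1, an aldo-keto reductase, differed by 2.76 (SE 0.52), and THOC3, a subunit of the complex that links transcription to export of messenger RNA, by 2.67 (SE 0.66). SETD7, a lysine methyltransferase, differed by 2.78 (SE 0.63), with 5.59 to 10.35 in MS, and its call was lost when only the slides that hold both breeds were used.

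Among genes lower in MS, DLK1, an imprinted ligand-like protein of the Notch family that restrains differentiation of fat and muscle precursors, had the most negative difference. It was 10.68 to 12.33 with a median of 11.98 in LW and 7.22 to 9.44 with a median of 8.57 in MS. No LW fetus came down to the highest MS fetus. The difference was -3.35 (SE 0.22), 10.2-fold lower in MS, with a limma adjusted p of 1.67e-18, and its other 3 probes gave -3.35 to -1.46.

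MYH3, the embryonic myosin heavy chain, was 14.90 to 17.25 (median 16.84) in LW and 13.13 to 14.32 (median 13.76) in MS, a difference of -2.87 (SE 0.21). PEG10, an imprinted gene derived from a retrotransposon, was 13.80 to 15.74 (median 15.54) in LW and 11.77 to 13.70 (median 12.71) in MS, a difference of -2.70 (SE 0.21). In both genes the groups were apart, but the lowest LW fetus of PEG10, fetus 9, lay only just above the highest MS fetus. NES, the intermediate filament nestin of immature muscle and nerve precursors, was 13.14 to 15.13 (median 14.84) in LW and 11.79 to 12.52 (median 12.32) in MS, a difference of -2.30 (SE 0.18).

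KIT, the receptor of stem cell factor, also known for its part in coat colour, was 10.76 to 11.39 in LW and 8.39 to 8.96 in MS, a difference of -2.34 (SE 0.12). Both groups were tight and well apart, and 3 other KIT probes gave -2.87 to -2.41. MMRN2, an extracellular protein of blood vessels, differed by -3.03 (SE 0.25) with a wide range of -6.03 to -0.97 over 4 other probes. FAM118A differed by -2.84 (SE 0.13) and by -3.40 on its second probe, with 9.84 to 10.44 in LW and 6.69 to 7.75 in MS. CYYR1 differed by -2.57 (SE 0.23), with -0.51 and -0.48 on its other probes. The probes of MMRN2 and CYYR1 thus had the same sign and different sizes.

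P4HA3, a subunit of the enzyme that hydroxylates proline in collagen, was 8.26 to 9.85 in LW and 6.22 to 6.96 in MS, a difference of -2.54 (SE 0.15). CD83, a surface protein of activated immune cells, differed by -2.44 (SE 0.28), or by -1.51 after normexp background correction. GSTM3, a glutathione transferase, differed by -2.38 (SE 0.16) and RCN1, a calcium-binding protein of the endoplasmic reticulum, by -2.20 (SE 0.25). The ranges of these 4 genes were apart in every case.

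**Figure D2:**
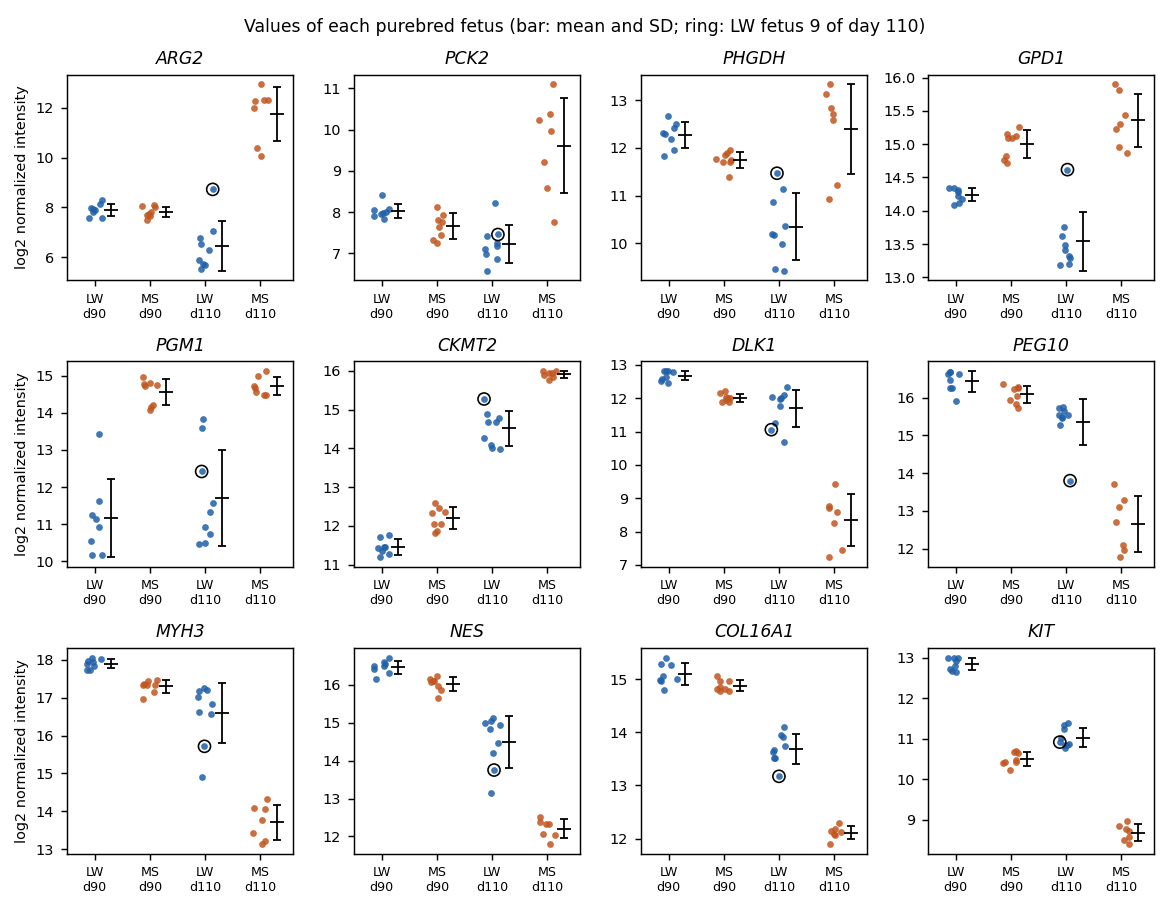
Points are single purebred fetuses of day 90 (d90) and day 110 (d110) for 12 genes, with the level in log2 normalized intensity on the y axis. Bars give the mean and SD of each group, and the ring marks LW fetus 9 of day 110, which for ARG2 stands at 8.72 and for PEG10 at 13.80.

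Genes were also read by lists of pathways and cell types, each described by its counts and its median, to be read beside the 14% of all genes that were higher, the 17.8% that were lower and the median of -0.01. The LW and MS muscle samples are whole tissue, so fewer cells of a type and less RNA per cell cannot be told apart. For the genes of glycogen metabolism, 11 of 19 were higher in MS and none was lower, with a median difference of 0.39. Beside PGM1, these were PYGM, the muscle glycogen phosphorylase, PHKA1 and PHKB, subunits of the kinase that activates it, GYS1, glycogen synthase, GYG1, the primer of glycogen chains, and GAA, which degrades glycogen in lysosomes. PYGM was 13.22 to 14.80 (median 13.81) in LW and 14.52 to 15.31 (median 14.90) in MS, a difference of 0.99 (SE 0.13), and the highest LW fetus, fetus 9, lay inside the MS range. PHKA1 was 10.38 to 11.57 in LW and 11.79 to 12.22 in MS, with no overlap and a difference of 0.96 (SE 0.10). The branching enzyme GBE1 had a value of 0.30 and was not called.

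Glycolysis was less even. Of 19 genes 8 were higher and 2 were lower in MS, with a median of 0.36. LDHA, which makes lactate from pyruvate, was 13.71 to 15.77 (median 14.43) in LW and 15.07 to 15.91 (median 15.74) in MS. The LW fetuses spanned a wide range and the highest of them lay inside the MS range. The difference was 1.12 (SE 0.17, adjusted p = 2.65e-07). The triose phosphate isomerase TPI1 and the pyruvate kinase PKM differed by 0.64 and 0.63, PFKM and ALDOA by 0.48 each, whereas the hexokinase HK1 was lower by -0.61 and PGAM1, the form of phosphoglycerate mutase of tissues other than muscle, by -0.33. The phosphoglycerate kinase PGK1 was called at 0.36, with 14.69 to 15.91 in LW and 15.37 to 15.80 in MS. Its call was lost when the 16 arrays were fitted alone (limma adjusted p = 0.0706) and with only the slides that hold both breeds (0.0259).

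Enzymes that run towards glucose and glycerol phosphate were higher in MS for 9 of 14 genes and lower for none, with a median of 0.47. GPD1, which makes glycerol 3-phosphate in the cytosol, was 13.19 to 14.62 (median 13.41) in LW and 14.86 to 15.91 (median 15.30) in MS. All 7 MS fetuses were above the highest LW fetus, which was fetus 9. The difference was 1.81 (SE 0.15), 3.51-fold, with a limma adjusted p of 1.24e-14, and 4 other probes gave 1.72 to 2.06. FBP2, the muscle fructose bisphosphatase, differed by 1.01 (SE 0.21), the aspartate aminotransferases GOT1 and GOT2 by 0.82 and 0.56, and SORD, sorbitol dehydrogenase, by 0.76 (SE 0.15). PCK1, the cytosolic form of phosphoenolpyruvate carboxykinase, was at -0.28 and not called, while the mitochondrial form PCK2 was called at 2.38.

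Oxidation of fatty acids had 12 of 25 genes higher in MS and 1 lower, with a median of 0.38. ECI2, an isomerase for unsaturated fatty acids, was 8.25 to 9.20 (median 8.73) in LW and 10.73 to 11.30 (median 10.91) in MS, a difference of 2.24 (SE 0.17) that a second probe gave as 2.29. The fetuses of the breeds were far apart for this gene. Smaller differences were seen for the related ECI1 (0.96), for ACAT1 and OXCT1 of ketone body use (0.84 and 0.80) and for CPT1B and CPT2, the muscle carnitine palmitoyltransferases (0.73 and 0.77). ACADL, the long-chain acyl-CoA dehydrogenase, was lower in MS by -0.67. In the list of uptake, synthesis and storage of fatty acids, 4 of 20 genes were called, a share of 20% under the 31.8% of all genes, and all 4 were higher: ACACB, which makes the inhibitor of carnitine transfer (1.098), PNPLA2, a triglyceride lipase (1.03), SLC27A1, a fatty acid transporter (0.69), and FABP3, the fatty acid binding protein of muscle (0.54).

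Mitochondrial genes were higher in MS in large numbers and by small amounts. The citric acid cycle had 11 of 15 genes higher and none lower, with a median of 0.43, and all 15 values were positive. MDH2, malate dehydrogenase, was 14.57 to 15.43 in LW and 15.47 to 15.98 in MS, a difference of 0.74 (SE 0.13), and CS, citrate synthase, differed by 0.55. Nuclear genes of the respiratory chain and ATP synthase were higher for 41 of 67 and lower for 3, with a median of 0.29. CYCS, cytochrome c, was 14.57 to 15.46 in LW and 15.76 to 16.02 in MS, a difference of 0.85 (SE 0.11), while 13 other CYCS probes ranged from -1.13 to 0.73. NDUFB1 of complex I differed by 0.86 (SE 0.14), and by 0.41 after normexp background correction.

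The mean level over the 67 respiratory chain genes was 14.59 to 14.96 (median 14.82) in LW and 14.97 to 15.13 (median 15.08) in MS, so that the highest LW fetus stood just under the lowest MS fetus. The 3 genes in the other direction were COX7B (-0.77), NDUFC2 (-0.53) and COX6A1 (-0.31), which are subunits of complexes IV, I and IV. COX7B was 15.16 to 15.63 in LW and 14.17 to 14.93 in MS, with no overlap, and its difference was -0.50 under scaling to the 75th percentile. Mitochondrial ribosomal proteins were higher for 27 of 61 genes and lower for 2, with a median of 0.23, led by MRPL45 (0.86, SE 0.12) and MRPL37 (0.80, SE 0.14).

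The pyruvate dehydrogenase complex with its kinases and phosphatases had 5 of 10 genes higher and none lower, with a median of 0.31. PDP1, the phosphatase that activates the complex, was 7.93 to 8.93 in LW and 9.09 to 9.65 in MS, a difference of 1.00 (SE 0.12). A list of regulators of mitochondrial formation, which also holds uncoupling proteins and the oxygen carrier myoglobin, had 6 of 17 genes called, 35.3% beside 31.8% of all genes. The 5 higher genes were the uncoupling protein UCP3 (1.26, SE 0.25), the orphan receptors ESRRG (1.23, SE 0.19) and ESRRA (0.33), myoglobin (1.12) and the coactivator PPRC1 (0.52). UCP2, an uncoupling protein of many tissues, was lower by -1.32 (SE 0.19). PPARGC1A, the coactivator PGC-1alpha, and the mitochondrial transcription factor TFAM were at 0.05 and 0.10 and not called. When quantile normalization was replaced by scaling each array to the 75th percentile, the medians of the citric acid cycle, the respiratory chain and the pyruvate dehydrogenase list were larger, at 0.71, 0.57 and 0.47.

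Targets of the transcription factor ATF4 and the enzymes of serine synthesis had a median of 0.48, with 10 of 20 genes higher and 2 lower in MS. ATF4 drives genes of amino acid supply when amino acids run short or the endoplasmic reticulum is under stress. PCK2 was 6.58 to 8.22 (median 7.17) in LW and 7.76 to 11.11 (median 9.97) in MS, with a difference of 2.38 (SE 0.28, adjusted p = 8.61e-10). ASNS, which makes asparagine, was 4.61 to 6.82 (median 5.52) in LW and 6.56 to 8.43 (median 8.15) in MS, a difference of 2.26 (SE 0.27) that was 1.40 after normexp background correction. PHGDH, the first enzyme of serine synthesis, was 9.43 to 11.47 (median 10.20) in LW and 10.93 to 13.34 (median 12.72) in MS, a difference of 2.05 (SE 0.27).

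In each of these 3 genes the MS fetuses were spread widely and the lowest of them lay inside the LW range. Amino acid transporters SLC3A2 and SLC7A1 were higher by 1.45 and 0.72, the last serine enzyme PSPH by 0.92, the mitochondrial folate enzyme ALDH1L2 by 1.03 and the hormone FGF21 by 0.99. PSAT1, the middle enzyme of serine synthesis, and ATF4 itself were at -0.05 and -0.04 and not called. The stress genes DDIT3 (-0.50) and GDF15 (-2.09) were lower in MS. The mean level of the list was 7.99 to 8.57 (median 8.40) in LW and 8.38 to 9.26 (median 8.65) in MS, and the median difference was 0.17 when the background was corrected with the normexp method.

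**Figure D3:**
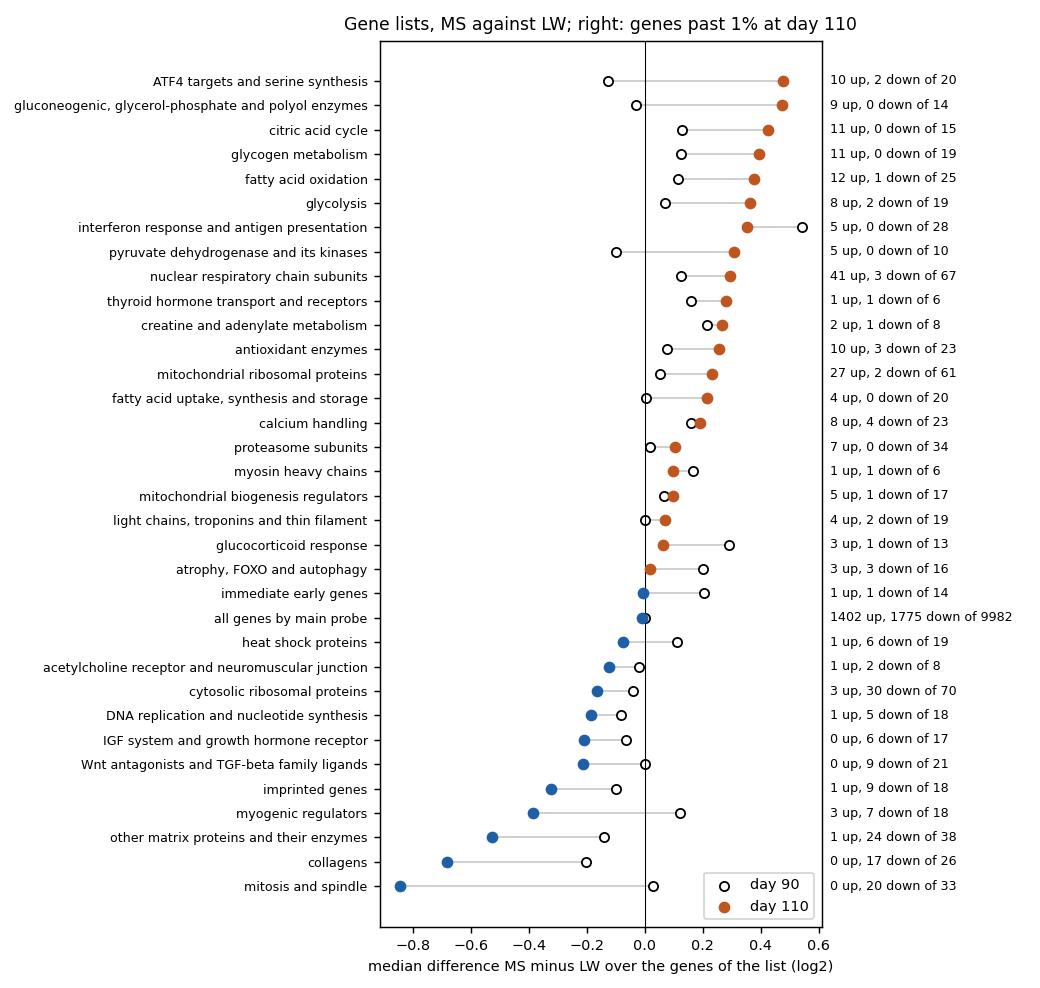
Filled points give the median difference MS minus LW (log2) over the measured genes of each list at day 110 and open points the same at day 90, with all genes by main probe as a row of its own at -0.01. The text at the right counts the genes called as higher (up) and lower (down) in MS at day 110, such as 41 up and 3 down of 67 for the respiratory chain.

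Myosin heavy chains and thin filament genes were called in shares near that of all genes. Of 6 myosin heavy chains, MYH3 was lower and MYH2, the chain of fast oxidative fibres, was higher in MS by 0.37 (SE 0.06), or 0.70 under scaling to the 75th percentile, with 17.11 to 17.44 in LW and 17.38 to 17.97 in MS. The slow chain MYH7 and the fast chains MYH1 and MYH4 had differences of 0.05, -0.01 and 0.14 and were not called. Of 19 light chains, troponins and thin filament proteins, 4 were higher and 2 lower, 31.6% beside 31.8% of all genes. TNNT2, the cardiac and fetal form of troponin T, was lower by -1.22 (SE 0.19) with ranges of 9.39 to 11.07 in LW and 8.57 to 9.34 in MS. The cardiac actin ACTC1, also a fetal form in skeletal muscle, was lower by -0.41 (SE 0.07), a call that was lost with scaling to the 75th percentile, where the difference was -0.08. TTN and NEB, the giant proteins of the sarcomere, were higher by 0.73 and 0.40.

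Calcium handling had 8 of 23 genes higher and 4 lower, with a median of 0.19. ATP2A1, the calcium pump of fast fibres, was higher by 1.03 (SE 0.21), though its 4 other probes ranged from -0.61 to 1.22, and CACNA1S, the voltage sensor of the transverse tubule, was higher by 0.84 (SE 0.15) with 11.38 to 12.12 in LW and 12.21 to 13.00 in MS. STAC3, which couples that sensor to calcium release, was higher by 0.81. SRL, sarcalumenin of the sarcoplasmic reticulum, was lower by -1.19 (SE 0.13), while its second probe gave 0.60. CKMT2, the mitochondrial creatine kinase of muscle, was 13.99 to 15.27 (median 14.69) in LW and 15.77 to 16.002 (median 15.94) in MS, a difference of 1.39 (SE 0.15) that 11 other probes gave as 1.42 to 1.71. CKM, the cytosolic muscle creatine kinase, was at 0.17 and not called.

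Among regulators of muscle formation 3 of 18 were higher and 7 lower in MS, with a median of -0.38. PAX7, the transcription factor that marks satellite cells, was 7.65 to 8.51 (median 8.10) in LW and 8.82 to 9.56 (median 9.25) in MS, a difference of 1.16 (SE 0.13), and PAX3 differed by 0.79. MYMK, the membrane protein myomaker that fuses myoblasts, was 7.28 to 8.32 (median 7.99) in LW and 5.54 to 7.74 (median 6.64) in MS, a difference of -1.37 (SE 0.21). The satellite cell marker and the fusion protein thus differed in opposite directions. MYOG, which drives differentiation, was lower by -0.48, MSTN, the inhibitor of muscle growth myostatin, by -0.58, and the inhibitors ID2 and ID3 by -0.74 and -0.66. MYOD1 and MYF5 were at -0.38 and -0.45 and not called. At the neuromuscular junction NCAM1, an adhesion molecule of immature and regenerating fibres, was 9.41 to 10.45 in LW and 7.98 to 8.83 in MS, a difference of -1.43 (SE 0.15), and LRP4, the agrin receptor, was higher by 0.47 (SE 0.09).

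Collagens were lower in MS for 17 of 26 genes and higher for none, with a median of -0.68. COL1A2, a chain of fibrillar collagen I, was 14.64 to 15.56 (median 15.23) in LW and 13.81 to 14.41 (median 13.95) in MS, without overlap, a difference of -1.17 (SE 0.13, adjusted p = 1.02e-10). COL16A1, which joins fibrils to the matrix, was 13.17 to 14.09 (median 13.66) in LW and 11.89 to 12.29 (median 12.13) in MS. Its lowest LW fetus was again fetus 9, and the difference was -1.57 (SE 0.11). COL11A1 differed by -1.36 (SE 0.22), COL3A1 by -0.94 and COL4A1 of basement membranes by -0.69.

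Other matrix proteins and their enzymes were lower for 24 of 38 genes and higher for 1, with a median of -0.53. POSTN, periostin, was 11.25 to 13.35 (median 12.81) in LW and 10.61 to 11.26 (median 11.00) in MS, a difference of -1.52 (SE 0.20), and VCAN, the proteoglycan versican, was 9.61 to 10.40 in LW and 8.62 to 8.90 in MS, a difference of -1.22 (SE 0.11). CTHRC1 (-1.23), tenascin TNC (-1.18), lumican LUM (-1.11), the collagen chaperone SERPINH1 (-1.07) and SPARC (-0.81) were lower too, and MMP9, a matrix protease, was higher by 0.46. Over the 26 collagens the mean level was 10.29 to 10.92 in LW and 9.89 to 10.18 in MS, and over the 38 other matrix genes 10.73 to 11.27 in LW and 10.30 to 10.50 in MS. In both lists the ranges of the breeds did not overlap.

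Markers of connective tissue cells share genes with the collagen list, so the lists are not independent. Of 7 fibroblast markers 5 were lower in MS and none higher, with a median of -0.94 and a mean level of 12.87 to 13.38 in LW and 12.22 to 12.54 in MS, and the collagen genes COL1A1, COL1A2 and COL3A1 are in both lists. PDGFRA, a receptor that marks these cells, was at -0.33 and not called. Of 4 tendon and cartilage markers, TNMD and COMP were lower by -1.33 and -0.88, and the mean level of the list was 7.12 to 9.48 in LW and 7.14 to 8.42 in MS. The part of these markers in the difference of the matrix genes was not tested.

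Markers of other cell types were few in number, and 31.8% of all genes were called. Of 7 adipocyte markers FABP4 was lower by -1.16, of 6 endothelial markers KDR was lower by -1.31, of 7 myeloid markers CD14 was higher by 0.52, and of 6 Schwann cell markers S100B was higher by 0.50. Of 5 smooth muscle markers SMTN was higher and CNN1 lower, of 8 erythroid markers EPB42 was higher and SLC4A1 lower, and of 3 cardiac markers MYBPC3 and NPPA were higher by 0.97 and 0.66. The only measured epidermis marker, KRT5, was higher by 0.81, and none of 2 lymphocyte and 3 liver markers was called.

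Genes of mitosis and the spindle were lower in MS for 20 of 33 and higher for none, with a median of -0.84, which was -0.32 after normexp background correction. Only 19 of the 33 were well above background on all 16 arrays, so the values of this list rest in part on dim probes. SGO1, which protects the cohesion of centromeres, was 5.5997 to 6.87 (median 6.37) in LW and 4.56 to 5.83 (median 5.09) in MS, a difference of -1.22 (SE 0.17) that was -0.61 after normexp background correction. NUSAP1, a protein of spindle microtubules, was 7.97 to 8.79 (median 8.36) in LW and 6.65 to 7.84 (median 7.40) in MS, a difference of -1.09 (SE 0.15). The ranges of SGO1 overlapped and those of NUSAP1 did not. KIF23, which acts in cytokinesis, was lower by -1.84, CDK1 by -0.96 and CCNB1 by -0.74. TOP2A and KIFC1 were lower by -1.12 (SE 0.24) and -1.17 (SE 0.20), calls that were lost when only slides with both breeds were used.

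MKI67, a proliferation marker, and BIRC5 were at -0.03 and 0.23 and not called. The mean level over the 33 mitosis genes was 5.41 to 6.63 (median 6.18) in LW and 4.93 to 5.97 (median 5.53) in MS, so that the ranges overlapped. DNA replication and nucleotide synthesis had 5 of 18 genes lower, led by MCM3 (-1.56), UHRF1 (-1.47), MCM2 (-0.97) and MCM6 (-0.78), which except for UHRF1 are subunits of the replicative helicase. The call of MCM2 was lost with only the slides that hold both breeds, and its difference was -0.54 after normexp background correction. With 33.3% of genes called, the list was near the 31.8% of all genes. DUT, which removes dUTP, was the single gene of this list that was higher in MS, with 12.02 to 12.54 in LW and 13.01 to 13.31 in MS and a difference of 0.83 (SE 0.08). CDK6, a kinase of the G1 phase, was lower by -0.53 (SE 0.08).

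**Figure D4:**
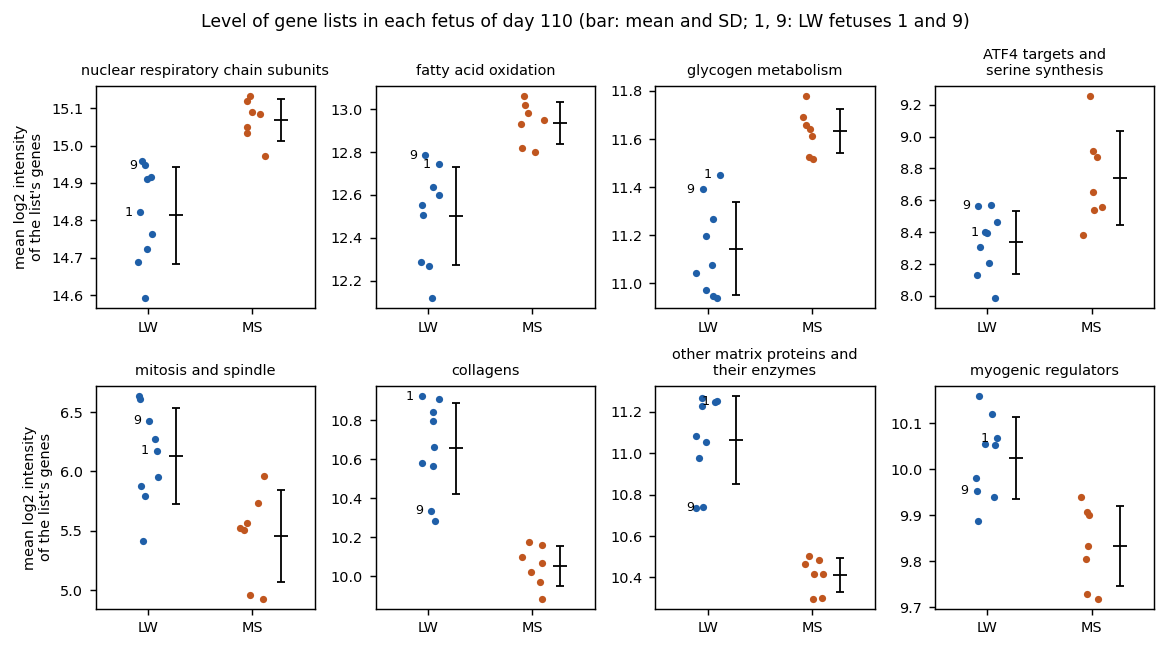
Points are the 9 LW and 7 MS fetuses of day 110, with the mean log2 normalized intensity over the genes of a list on the y axis, and bars give the mean and SD. The breeds do not overlap for the respiratory chain, fatty acid oxidation, glycogen, collagen and other matrix lists and overlap for mitosis, ATF4 targets and myogenic regulators, where 1 and 9 mark those LW fetuses.

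Imprinted genes, which are expressed from the copy of a single parent, were lower in MS for 9 of 18 and higher for 1, with a median of -0.32. Beside DLK1 and PEG10 these were MEG3, the maternally expressed RNA of the DLK1 region, NNAT, PLAGL1, SGCE, MEST, IGF2R and IGF2. MEG3 was 16.42 to 17.40 (median 16.87) in LW and 14.81 to 15.92 (median 15.36) in MS, a difference of -1.66 (SE 0.17), with no overlap. DLK1 and MEG3, which are expressed from opposite parental copies, were thus both lower. H19, CDKN1C, GRB10 and PEG3 were at -0.20, -0.10, -0.11 and -0.17 and not called.

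IGF2, the main growth factor of the fetus, was 17.10 to 17.60 (median 17.44) in LW and 16.94 to 17.10 (median 17.02) in MS. The difference of its brightest probe was -0.42 (SE 0.05, adjusted p = 9.53e-09), and its 7 other, less bright probes gave -1.42 to -1.28. The call of the brightest probe was lost when arrays were scaled to the 75th percentile, where its difference was -0.0534. Whether saturation makes the difference of that probe smaller was not tested. MAGEL2 was the imprinted gene that was higher in MS, with 3.88 to 5.88 in LW, where 6 of 9 arrays were well above background, and 6.86 to 7.23 in MS. Its difference of 2.18 rests in part on arrays where the probe was dim and was 1.01 after normexp background correction. In the crosses of day 110 MAGEL2 had a mean of 4.38 in LWMS, whose sire is LW, and 7.53 in MSLW, whose sire is MS.

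The IGF system had 6 of 17 genes lower and none higher, with a median of -0.21 that was -0.08 under scaling to the 75th percentile, and its 35.3% of called genes was near the 31.8% of all genes. IGFBP2, a binding protein of the IGFs, was 11.44 to 11.87 in LW and 10.57 to 10.95 in MS, a difference of -0.81 (SE 0.10), and IGF2R, which clears IGF2, was lower by -0.57 (SE 0.08). IGF1, its receptor IGF1R and the growth hormone receptor GHR were at -0.02, 0.17 and -0.21 and not called. Of the Wnt antagonists and TGF-beta family ligands 9 of 21 were lower and none higher, with a median of -0.21. TGFB3 was 9.59 to 10.46 in LW and 8.86 to 9.43 in MS, a difference of -1.0015 (SE 0.12), and the Wnt antagonists SFRP4 and FRZB were lower by -1.08 (SE 0.18) and -1.07 (SE 0.17). FST, which binds activin and myostatin, was lower by -0.52.

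Protein synthesis and turnover gave values that depended on the scaling. Cytosolic ribosomal proteins were lower in MS for 30 of 70 genes and higher for 3, with a median of -0.17 under quantile normalization and 0.16 under scaling to the 75th percentile. The differences of RPS4X and RPS23, -0.46 and -0.45, were -0.19 and -0.09 and not called under that scaling. Proteasome subunits were called for 20.6% beside 31.8% of all genes, with 7 of 34 higher, none lower and a median of 0.10. Heat shock proteins were lower for 6 of 19 and higher for 1, 36.8% beside 31.8% of all genes, with a median of -0.08 that was 0.09 under scaling to the 75th percentile. HSPA5, the chaperone BiP of the endoplasmic reticulum, was 12.49 to 13.06 in LW and 11.61 to 12.31 in MS, a difference of -0.89 (SE 0.13), and HSPH1 was lower by -0.76 (SE 0.13). HSPA4 was higher by 1.34 (SE 0.22).

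Antioxidant enzymes were higher for 10 of 23 genes and lower for 3. GPX3, the secreted glutathione peroxidase, was higher by 1.16 (SE 0.28) and NQO1, a quinone reductase, by 1.07 (SE 0.17), or 0.66 after normexp background correction, while HMOX1, haem oxygenase, was lower by -0.69. In the list of atrophy, FOXO and autophagy 3 of 16 genes were higher and 3 lower, 37.5% beside 31.8% of all genes. FBXO40, a muscle ubiquitin ligase, was higher by 1.05 (SE 0.17) and FOXO1 lower by -0.85 (SE 0.13), with 12.48 to 13.46 in LW and 11.88 to 12.46 in MS. The ligases FBXO32 and TRIM63, known from muscle wasting, were at 0.16 and -0.22 and not called.

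Hormone response genes were called at about the 31.8% of all genes, with 30.8% of 13 glucocorticoid response genes and 33.3% of 6 thyroid hormone genes. Of the former 3 were higher and the receptor NR3C1 was lower by -0.37. KLF9, a target of glucocorticoid and thyroid hormone, was 12.49 to 13.55 in LW and 13.63 to 14.58 in MS, a difference of 1.01 (SE 0.21). FKBP5, another glucocorticoid target, had a difference of 0.83 (SE 0.25, adjusted p = 0.00549), and its call was lost without MS fetus 1 or 2 or LW fetus 6 or 8, with adjusted p of 0.0112 to 0.0152. Of the latter DIO2, which activates the hormone, was higher by 0.82 (SE 0.20) and the receptor THRA lower by -0.48 (SE 0.10), and both calls were lost when the 16 arrays were fitted alone. DIO2 was 0.42 after normexp background correction and THRA -0.21 under scaling to the 75th percentile. Of 14 immediate early genes 1 was higher and 1 lower. The difference of CREM, the lower gene, was -0.38 (SE 0.10), with an adjusted p of 0.0106 without MS fetus 4.

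Of 28 genes of the interferon response and antigen presentation, 5 were higher in MS and none lower, 17.9% beside 31.8% of all genes, with a median of 0.35. SLA-2, a class I antigen of the pig, was 13.08 to 13.77 in LW and 13.71 to 14.11 in MS, a difference of 0.53 (SE 0.15). MX1, RSAD2 and ISG15 had values of 0.84, 0.76 and 0.60 and were not called. The mean level of the list was 9.15 to 10.62 in LW fetuses and 9.58 to 10.27 in MS fetuses, so that the LW fetuses covered the MS range.

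The differences of day 110 were then set beside those of the 8 MS and 8 LW fetuses of day 90. At day 90, 13.1% of the genes were called, 656 as higher (6.57%) and 649 as lower (6.5%) in MS, and 12.8% of the probes. Probes called in the same direction at both ages numbered 3391, which is 27.6% of the calls of day 110 and 62.2% of those of day 90, and 61 were called in opposite directions. The median size among called genes was 0.55 at day 110 and 0.56 at day 90. The change of the difference between the ages was itself tested, and it was called for 5.95% of the probes and for 7.99% of the genes, 308 more positive (3.09%) and 490 more negative (4.91%) at day 110. Of the probes called at day 110, 17.0% also had a called change.

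KIT, FAM118A, MMRN2, PGM1 and ECI2 had large differences at both ages. Their differences at day 90 were -2.34, -2.79, -3.43, 3.41 and 1.91, and the change was not called for any of them. CYYR1 (-2.26), PHYHD1 (2.48) and UCP3 (1.78) were also called at day 90 in the direction of day 110.

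The 5 most positive called changes among genes that were called at day 110 and measured on all 16 arrays were in genes without a call at day 90. ARG2 differed by -0.08 at day 90, and its change of 5.37 had a limma adjusted p of 2.85e-09. PCK2, ASNS and PHGDH were at -0.36, -0.33 and -0.52 at day 90, none of which was called, and changed by 2.74, 2.58 and 2.57. The means of PHGDH show the movement of both breeds, since the LW mean was 12.27 at day 90 and 10.34 at day 110, and the MS mean 11.75 and 12.39. MGST2, a glutathione transferase of membranes, was at -0.54 at day 90 and changed by 2.45.

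DLK1, PEG10, MYH3 and MYMK were the genes with the most negative changes beside ENPEP. Their differences at day 90 were -0.66, -0.35, -0.60 and 0.50 and their changes -2.69, -2.35, -2.27 and -1.87. For all 4 genes the mean was lower at day 110 than at day 90 in both breeds, by more in MS. The LW mean of DLK1 was 12.68 at day 90 and 11.69 at day 110, and its MS mean 12.02 and 8.35. ENPEP, an aminopeptidase of cell surfaces, ran the other way, with a difference of 2.79 at day 90 and 0.55 at day 110, a change of -2.24. GBP1, an interferon-induced GTPase, likewise had 1.68 at day 90 and 0.04 at day 110.

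**Figure D5:**
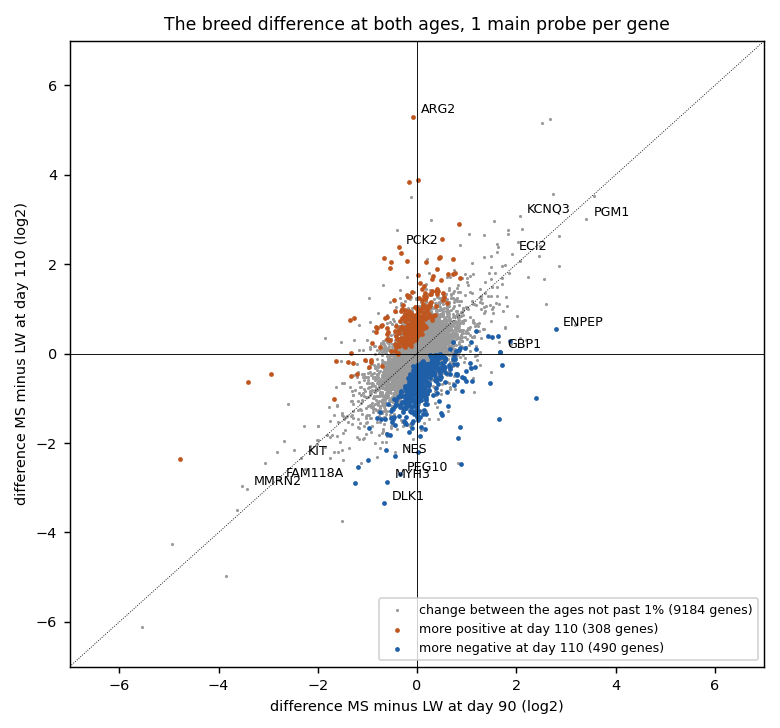
Each point is 1 gene read by its main probe, with the difference MS minus LW (log2) at day 90 on the x axis and at day 110 on the y axis, and the dotted line marks equal differences. Orange and blue points are the 308 and 490 genes whose difference was called as more positive or more negative at day 110, and KIT and FAM118A lie near the line while ARG2 stands at -0.08 and 5.29.

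Lists differed in the same respect. Mitosis and spindle genes had a median of 0.03 at day 90 with 1 gene of 33 called, against -0.84 at day 110, and the change was called as negative for 11 genes and as positive for none. Other matrix genes had a negative change for 16 of 38 and collagens for 7 of 26. The ATF4 list had no call at day 90 and a median of -0.13, with a positive change for 6 of 20 genes at day 110. Interferon and antigen genes had 15 of 28 higher in MS at day 90 with a median of 0.54, and a negative change was called for 2 of them. Of 8 imprinted genes with a called change, all 8 were more negative at day 110.

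The crossbred fetuses gave a measure of age that shares no array with the purebred comparison. Their age change from day 90 to day 110, taken over LWMS and MSLW together, was called for 60% of the probes. Of the 9272 probes called both for breed at day 110 and for age in the crosses, 88.9% differed between MS and LW in the direction in which the crosses changed with age, so that MS stood on the older side. Over all probes called for age, whatever their breed difference, the share was 77.8% at day 110 and 55.0% at day 90. A score was taken as the mean level of the 12699 probes that rose with age in the crosses minus that of the 12763 that fell, and its means in LWMS and MSLW were -0.973 and -0.997 at day 90 and 0.752 and 0.648 at day 110. It had a mean of 0.39 (SD 0.173, n = 9) in LW and 0.936 (SD 0.0802, n = 7) in MS at day 110. The difference of 0.547 had an exact two-sided permutation p of 8.74e-05, the smallest that the 11440 splits allow. At day 90 the purebreds differed by 0.0924, with an exact two-sided permutation p of 0.0115 over 12870 splits. The splits count littermates as separate fetuses, so neither p measures the spread between litters. LW fetuses lay between 0.103 and 0.641 and MS fetuses between 0.845 and 1.04, with LW fetus 9 the highest of its group, and a reading of the score as maturity was not tested.

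Genes that went against the age change of the crosses were fewer, 1030 probes, and 3017 probes called for breed were not called for age. APITD1, RASGRP3 and CTNNA3 were higher in MS by 2.90, 1.24 and 1.34 while their age changes in the crosses were -1.003, -0.40 and -0.87. RASGRP3, an activator of Ras, was 8.23 to 9.55 in LW and 9.92 to 10.58 in MS, without overlap. S100A2, a calcium-binding protein, NRN1, which promotes the growth of nerve cell processes, and PAFAH2, a lipid hydrolase, were lower in MS by -2.16, -2.20 and -1.98 and rose with age by 0.79, 1.23 and 0.30. PAFAH2 was 11.07 to 11.45 in LW and 9.09 to 9.54 in MS. CFB, complement factor B, was lower by -1.85 (SE 0.44), a call that was lost with only the slides that hold both breeds.

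The LW fetuses of day 110 varied more than the MS fetuses. The SD was larger in LW for 62.8% of the probes at day 110 and for 50.2% at day 90, with a median SD of 0.278 in LW and 0.236 in MS. Without LW fetus 9 the share was 58.7%. That fetus was the LW fetus nearest to MS for 475 of 1275 genes higher in MS (37.3%) and for 480 of 1592 genes lower in MS (30.2%), counted over called genes with a value in all 16 fetuses. LW fetus 1 followed with 18.98% and 17.4%. Without LW fetus 9, 12675 probes were called in place of 12289, and the number of probes with a called change between the ages went from 2524 to 3364.

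Genes with the largest SD among LW fetuses included AKR1CL1, PGM1 and MYBPC2. ANKRD1, a protein of the stretch response, was 12.16 to 15.89 in LW and 11.66 to 14.29 in MS, with a difference of -1.49 (SE 0.43, adjusted p = 0.00387). Its call was lost without MS fetus 3 or 7 or LW fetus 3, 6 or 7, with adjusted p of 0.0107 to 0.0147. ART5, an ADP-ribosyltransferase of muscle, was 4.79 to 8.16 in LW and 7.51 to 8.45 in MS, a difference of 1.32 (SE 0.38), and its adjusted p was 0.0113 to 0.0152 without MS fetus 5 or LW fetus 4 or 5. Both calls were also lost when the 16 arrays were fitted alone, with limma adjusted p of 0.0352 for ANKRD1 and 0.0219 for ART5. With only the slides that hold both breeds these were 0.0452 and 0.0379.

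Some probes were measured in a single breed. At day 110, 13 probes were well above background on all 7 MS arrays and on no LW array, and 22 on all 9 LW arrays and on no MS array. IYD, iodotyrosine deiodinase, which recovers iodide, was among the first, with 6.86 to 8.22 in MS on its brighter probe. Taken against the lowest signal that counts as well above background on each LW array, it was at least 10.8-fold higher in MS on 1 probe and at least 7.80-fold on another. Both probes were also well above background on 8 MS and 0 LW arrays of day 90. ENOSF1 was measured in LW and not well above background in MS, at least 4.13-fold lower there, and a further KIT probe was at least 5.40-fold lower. The probe with the largest bound, A_72_P434844, carries no gene symbol and was at least 25.3-fold higher in LW.

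The crosses of day 110 lay between the purebreds for most genes with a difference of at least 1 log2 unit. Of 353 such genes measured on all 16 arrays the mean of the 8 LWMS fetuses was between those of LW and MS in 348, at a median of 0.547 of the way from LW to MS, and the mean of the 5 MSLW fetuses in 341, at 0.474. These positions use the LW and MS means that define them and carry no test. On the log2 scale ARG2, at 11.51 in LWMS and 11.20 in MSLW, was nearer to MS. KIT, at 10.22 and 10.21, and FAM118A, at 9.30 and 9.35, were nearer to LW. Each was thus nearer to the breed with the higher level. A mean of intensities lies above the mean of their log2 values, so these positions need not hold on the scale of intensities. Whether a breed's level dominates in the crosses was not tested. The X-linked genes COX7B and PHKA1, of which a male carries only his dam's copy, had means close to those of the breed of the sow (LW 15.39 and MS 14.62 for COX7B, LW 11.00 and MS 11.96 for PHKA1), with COX7B at 14.53 in LWMS and 15.54 in MSLW and PHKA1 at 11.84 and 11.09. These genes were picked from the named genes after their values were seen.

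Most calls were alike over the slides, each of which holds up to 8 arrays. On the 6 slides with fetuses of both breeds at day 110, 81.8% of the called probes had a difference of the same sign on all 6, against 34.5% of all probes. ARG2, PGM1, GPD1 and CKMT2 were higher in MS and DLK1, PEG10, MYH3 and NES lower on all 6, which follows from ranges that did not overlap. The probes were called on these same arrays, so the likeness over slides is not independent evidence. Where a called gene had other kept probes, 1782 genes, the others all had its sign in 1401, and in 69 another probe was called in the opposite direction. Of 24 genes that the study itself names, 14 were higher and 9 lower in MS and GBP1 was not called, but these were chosen on the same samples and are not independent evidence. Not all of these calls held under the alternatives. That of IL1RAPL2, with a difference of -0.46, was lost in 11 of 30 and that of PGK1 in 4 of 31.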

How the data were processed

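RNA of 61 longissimus muscle samples was labelled with Cy3 and read on 1-colour porcine oligonucleotide arrays, 1 fetus an array, on 8 slides. The deposited scanner files of Agilent Feature Extraction 10.10.1.1 give each spot's intensity as background-subtracted processed signal, which was used here. Per the study's methods, the deposited matrix holds log2 values after their own quality control and quantile normalization and served as an alternative. Genes and lists were chosen with earlier results of these data known.

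Spots of a probe were averaged, quantile-normalized over the 61 arrays and taken to log2, and spots flagged as non-uniform were left out first. A probe was kept if, in 1 or more groups, 80% of the arrays measured it well above background. Control spots were left out. limma 3.58.1 in R 4.3.3 (package data.table, version 1.17.8) fitted 8 group means with lmFit and eBayes, and p-values were adjusted by Benjamini-Hochberg over 42436 probes with a threshold of 1%. Figures were drawn with matplotlib 3.10.9. Gene symbols came from the files and from RefSeq's Sscrofa11.1 gene list, which was used for names only. They were matched by accession (7924 probes), gene number (1334), array name (11831), older symbol (162) or array name among Ensembl's symbols (193), and 12 kept the array's name. Probe coordinates were not used here, and 142 antisense probes were kept without a gene.

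Groups were taken from the breed and age labels. The study's model had the sow as a random effect, which no label gives, so it was left out. Genes were named by a rule, namely the 12 largest differences in each direction, the 3 largest of each list, the genes the study names, the 5 largest changes between ages, differences shared by both ages, LW standard deviations and differences against the crossbred age change, and the 5 largest bounds. Other list members named in the text were picked after their values were seen. On simulated data with 200 changed probes of 40448, 28% of changes of 0.5 log2 units and 79% of changes of 1 log2 unit were recovered for MS against LW at day 110, with 0 false calls. The simulated noise was normal and independent, with the same spread in every group and no litters. In the data 29% of the probes were called, so these rates need not hold there. Alternatives were other normalizations, background correction, filters, slide blocks, fits of the 16 arrays alone and leaving out each fetus.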

Additional observations from a re-analysis of the deposited data

Results flagged for a closer look

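Of 284 groups, each of a named gene or of a measure of the whole array, 22 had 1 fetus far from the rest of its breed at day 110. All 22 were of named genes, and chance flags about 1 in 20 groups. Among LW fetuses, fetus 9 was the one apart in 7 of the 12 cases, namely ARG2 (8.72), GPD1 (14.62), IGF2 (17.10), MRPL37 (11.03), PEG10 (13.80), THRA (14.36) and TPI1 (15.14). The others were FRZB (11.16) and HSD11B1 (12.56) in fetus 1, GATM (9.56) and IGFBP6 (13.66) in fetus 2 and RPS23 (17.82) in fetus 4. Among MS fetuses these were ANKRD1 (14.29) and CTHRC1 (6.94) in fetus 1, ASNS (6.56) in fetus 3, IL1RAPL2 (6.20), NDUFB1 (7.24) and SLC27A1 (10.72) in fetus 4, NRN1 (9.05) in fetus 5, HSPA5 (12.31) in fetus 6, and CFB (7.85) and STMN1 (11.29) in fetus 7. LW fetus 9 is also the only LW fetus of day 110 on its slide, which holds no MS fetus of that age, and the part of the slide was not tested.

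In 56 of the 138 named genes the MS minus LW difference (log2) changed between day 90 and day 110. The change itself was tested in limma at an adjusted p below 1%, and 7.99% of all genes had a called change. Some genes were named for a called change or a large difference, so the share among named genes is not a result about them. The change was positive in 25 of the 56. Among enzymes and carriers of fuel and amino acids it was 0.85 for ACACB, 5.37 for ARG2, 2.58 for ASNS, 0.88 for ECI1, 1.05 for GPD1, 0.73 for IDH3G, 1.00 for LDHA, 0.66 for MPC2, 2.74 for PCK2, 0.56 for PDK2, 0.60 for PGK1, 2.57 for PHGDH, 0.89 for PNPLA2, 0.93 for PYGM, 0.58 for SLC27A1 and 0.92 for SORD. For other genes it was 2.05 for APITD1, 1.07 for CTNNA3, 0.51 for DUT, 0.75 for IL1RAPL2, 0.71 for LRP4, 2.45 for MGST2, 0.88 for PAX7, 0.50 for PSMB5 and 1.21 for RASGRP3.

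The change was negative in 31. For matrix genes it was -1.36 for COL16A1, -1.18 for COL1A2, -1.34 for P4HA3, -1.02 for POSTN and -0.96 for VCAN. For cell cycle and spindle genes it was -0.49 for CDK6, -1.10 for KIFC1, -1.07 for NUSAP1, -1.22 for SGO1, -0.76 for STMN1 and -1.28 for TOP2A. For imprinted genes and signals it was -2.69 for DLK1, -1.50 for FRZB, -0.42 for IGF2, -0.47 for IGF2R, -1.56 for MEG3, -2.35 for PEG10, -0.80 for TGFB3 and -0.53 for THRA. For genes of immature muscle it was -0.36 for ACTC1, -1.08 for MEGF10, -2.27 for MYH3, -1.87 for MYMK, -0.96 for NCAM1 and -1.85 for NES. It was -0.60 for CREM, -2.24 for ENPEP, -1.64 for GBP1, -1.40 for GSTM3, -1.13 for HSPH1 and -1.54 for S100A2.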

How the results depend on the processing

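With 9 and 7 fetuses, no sow in the labels and purebred sows only, the tests measure the spread between fetuses, which the main fit pools over all 8 groups. Fitting the 16 arrays alone called 9109 probes, where the main setting called 12289. No paired analysis was possible because the replicate numbers follow accession order and pair no fetuses. Calls at day 110 ranged from 8499 probes (slides with both breeds, slide as a block) to 13532 (all arrays, slide as a block). With those slides alone 4164 probes were lower in MS, and scaling to the 75th percentile gave 7197 higher and 5447 lower, where the main setting gave 5832 and 6457. Asking for at least 1 log2 unit in addition left 2607, of which 1093 were higher and 1514 lower. Leaving out 1 fetus gave 10945 (without MS fetus 2) to 12675 (without LW fetus 9), with 5169 to 6033 higher and 5776 to 6642 lower. The change between ages was called for 1989 (without LW fetus 6) to 3364 probes, day 90 for 5410 to 5574, and both ages for 3250 to 3438. Results of day 90, the change and the crosses cannot be had from the 16 arrays or the slides with both breeds alone.

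The share in the direction of the crossbred age change was 88 (without LW fetus 3) to 89.6 (without LW fetus 7) percent without 1 fetus. The share of probes with the larger SD in LW was 61.6 with each spot read by its median signal, 62.2 in the deposited table, 61.7 with normexp, 60.6 without a filter, 65.6 with probes above background on all arrays, and 58.7 (without LW fetus 9) to 65.3 (without MS fetus 2) without 1 fetus. With normexp the median difference was 0.17 for ATF4 targets, -0.32 for mitosis and 0.58 for the study's named genes. Scaled to the 75th percentile it was 0.71 for the citric acid cycle, 0.41 for light chains, 0.59 for creatine, 0.69 for gluconeogenic enzymes, 0.46 for calcium handling, 0.57 for the respiratory chain, 0.44 for antioxidants, 0.0891 for heat shock, 0.29 for glucocorticoid response, 0.47 for pyruvate dehydrogenase, 0.16 for cytosolic ribosomal proteins, -0.0774 for the IGF system, 0.34 for mitochondrial ribosomal proteins, 0.38 for myosin heavy chains, 0.25 for the proteasome and 0.0523 for all genes. With probes above background on all arrays it was -0.49 for imprinted and -0.10 for thyroid genes. The glucocorticoid median was 0.00877 without LW fetus 9 and 0.289 without LW fetus 2.

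Of 4267 pairs of a named gene and an alternative, 4092 kept direction and call, 169 lost the call and 6 changed sign, and 106 of 138 genes kept both under every alternative run. All 6 sign changes were of GBP1, which was not called, at -0.00238 with normexp, -0.0670 without MS fetus 4, -0.0893 without MS fetus 7, -0.000251 without LW fetus 4, -0.0809 without LW fetus 8 and -0.0300 without LW fetus 9. Without 1 fetus its value ran from -0.0893 to 0.152. The cause of these shifts was not tested.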
